A study of Rattus norvegicus with 11 samples.

Results

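S100a8, S100a9 and other neutrophil genes, 10 in all, were followed array by array, the rest being Csf3r, Cxcr2, Mmp8, Mmp9, Ngp, Camp, Lcn2 and Il1b. They were chosen by symbol, with the difference of S100a8 and S100a9 between older and younger lesions already known. All 10 genes were found, each with 1 probe set, among 14506 genes that the annotation names through 15310 of the 29214 probe sets. The samples were 11 adrenal glands or adrenal lesions of rats of the strain Sprague–Dawley white eye/Wistar–Kyoto, untreated and kept under specific-pathogen-free conditions, each array labelled as its own biological replicate. The 7 lesions were from MENX rats with 1 mutant copy (heterozygous) of the p27Kip1 gene, which the labels write Cdknb1 and the array annotation Cdkn1b and which encodes a cell cycle inhibitor. Of these, 3 were older (a female of 23 months, replicate 1, and males of 21 months, replicates 2 and 3) and 4 were younger (13 months, females in replicates 4 and 5, males in replicates 6 and 7). Normal glands came from 4 wild-type rats, 2 of 24 months (replicates 1 and 2) and 2 of 12 months (replicates 3 and 4), a female and a male at each age. The labels do not say what kind of lesion each sample was or how much normal gland it held.

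Neutrophils are short-lived white blood cells that leave the bone marrow fully formed and enter tissue along chemokine gradients. Much of their cytoplasm is filled with S100A8 and S100A9, small calcium-binding proteins that pair as calprotectin, bind zinc and manganese away from microbes and act on Toll-like receptor 4 when released. Monocytes also carry this pair, and stressed epithelium can switch it on. Granule genes such as Ngp, Camp, Mmp8 and Lcn2 are transcribed mainly in the marrow, while Csf3r and Cxcr2 keep being transcribed in circulating cells.

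S100a8 and S100a9 are neighbouring genes in the RefSeq gene table of assembly GRCr8. The promoter table of the same build, from RefSeq, held 8 of the 10 members. Of these, 3 windows are printed because their genes took different courses here: S100a9 was higher in older lesions, Csf3r hardly varied, and Lcn2 was the one member above the median of every array. Each runs 5′ to 3′ on the gene's strand from 250 bases before to 50 after the start, with capitals where a searched motif matched.
S100a9, chr2:178490573-178490872, minus strand: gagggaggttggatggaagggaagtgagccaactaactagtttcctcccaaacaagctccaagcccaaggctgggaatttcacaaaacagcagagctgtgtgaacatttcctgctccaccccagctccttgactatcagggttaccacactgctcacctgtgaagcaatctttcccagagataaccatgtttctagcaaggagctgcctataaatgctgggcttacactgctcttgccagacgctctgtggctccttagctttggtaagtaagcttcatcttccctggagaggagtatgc
Lcn2, chr3:36081731-36082030, minus strand: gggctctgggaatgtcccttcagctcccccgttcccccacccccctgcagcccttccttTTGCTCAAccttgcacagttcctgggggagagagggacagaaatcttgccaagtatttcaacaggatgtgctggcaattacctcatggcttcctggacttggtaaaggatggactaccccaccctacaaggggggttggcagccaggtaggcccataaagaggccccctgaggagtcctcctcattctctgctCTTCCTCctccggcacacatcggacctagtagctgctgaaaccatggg
Csf3r, chr5:143582970-143583269, plus strand: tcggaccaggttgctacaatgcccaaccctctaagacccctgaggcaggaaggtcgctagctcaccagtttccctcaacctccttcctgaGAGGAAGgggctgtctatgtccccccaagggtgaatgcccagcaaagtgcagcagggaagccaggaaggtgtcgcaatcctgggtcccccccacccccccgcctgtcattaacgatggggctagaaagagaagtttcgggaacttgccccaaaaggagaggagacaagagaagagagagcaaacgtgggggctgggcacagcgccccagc
The motifs searched on both strands were TTGCNNAA for C/EBP factors, GAGGAAG for PU.1 and TGANTCA for AP-1, factors of myeloid genes, and no matches overlapped in the member windows. The S100a9 window held none of the 3, the Lcn2 window held a C/EBP and a PU.1 match, and the Csf3r window a PU.1 match. Over the 8 member windows, 4 held a C/EBP match (Lcn2, Il1b, Mmp8 and Ngp), 2 a PU.1 match and 0 an AP-1 match. Over all 33469 windows the shares were 10.6%, 12.4% and 7.33%. A match is a string of letters and not a measured site.

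Levels are log2 expression values after robust multi-array averaging (RMA), so a difference of 1 is a 2-fold change. Array medians lay between 4.91 and 5.01. Lesion replicate 1 stood somewhat apart, with a mean correlation of 0.970 with the other arrays, against 0.978 to 0.986 for the rest. Cortical and chromaffin markers of the adrenal gland were bright on every array, with a list mean of 10.86 to 11.49 in older lesions, 11.28 to 11.50 in younger lesions and 11.24 to 11.50 in normal glands. Lesion replicate 1 set the lowest of these. Cdkn1b itself read 7.42 to 8.69 in lesions and 7.59 to 7.92 in normal glands. The position of these probes against the mutated bases is unknown here, and the level therefore checks no genotype.

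S100a8, the first chain of calprotectin (probe set 10817071), read 7.30, 7.14 and 5.01 in older lesions 1, 2 and 3. It read 4.04, 3.45, 4.44 and 4.01 in younger lesions 4 to 7. In normal glands it read 4.31 and 5.00 at 24 months and 3.43 and 3.06 at 12 months. Lesions 1 and 2 stood well above all other arrays, whereas lesion 3 lay barely above the 24-month male gland (5.011 against 4.997). The older lesions averaged 6.49 ± 1.28 (SD, n = 3), the younger lesions 3.98 ± 0.41 (SD, n = 4) and the normal glands 3.95 ± 0.87 (SD, n = 4). The older lesions were thus higher than the younger by 2.50 on the log2 scale, 5.67-fold. They were higher by 2.54 than the normal glands of both ages pooled. By age, the normal glands averaged 4.65 ± 0.49 (SD, n = 2) at 24 months and 3.24 ± 0.26 (SD, n = 2) at 12 months.

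S100a9, the second chain (probe set 10824695), read 7.54, 7.06 and 6.50 in older lesions 1, 2 and 3. It read 4.16, 4.10, 5.12 and 4.98 in younger lesions 4 to 7, and 4.40, 4.84, 4.12 and 5.00 in normal glands 1 to 4. The older lesions formed a group of their own, with a gap of more than 1 log2 unit to the next array. Their mean was 7.03 ± 0.52 (SD, n = 3), against 4.59 ± 0.53 (SD, n = 4) in younger lesions and 4.59 ± 0.40 (SD, n = 4) in normal glands. The difference between older and younger lesions was 2.44, or 5.44-fold. Outside the older lesions, S100a8 lay at percentiles 8.3 to 50.4 of its arrays and S100a9 at 35.1 to 52.5. Both fold values are therefore taken against dim readings. The younger lesions and the normal glands of both ages pooled differed in mean by 0.035 for S100a8 and by -0.002 for S100a9. For S100a8 the pooled mean hides an age split of the glands. The younger lesions averaged 3.98, against 3.24 in the younger glands and 4.65 in the older ones. All younger lesions (3.454 to 4.44) lay above both younger glands (3.429 and 3.06). For S100a9 the means were 4.59 in younger lesions, 4.56 in younger glands and 4.62 in older glands.

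These contrasts involve the values that brought the genes into view, so no test is given for them. By older minus younger lesions, S100a8 and S100a9 ranked 3 and 4 of 14506 genes. Both had all older lesions above all younger lesions, as did 3.04% of all probe sets, and above all 8 other arrays, as did 0.52%. No member had the older lesions below all 8 other arrays, as 0.822% of probe sets did. Leaving out lesion 1 gave differences of 2.09 and 2.19, and leaving out lesion 3 gave 3.24 and 2.71. The model over all probe sets called 0.0103% of them between older and younger lesions (limma adjusted p under 0.05). In whole tissue, more cells of a type and more RNA per cell cannot be told apart.

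**Figure D1:**
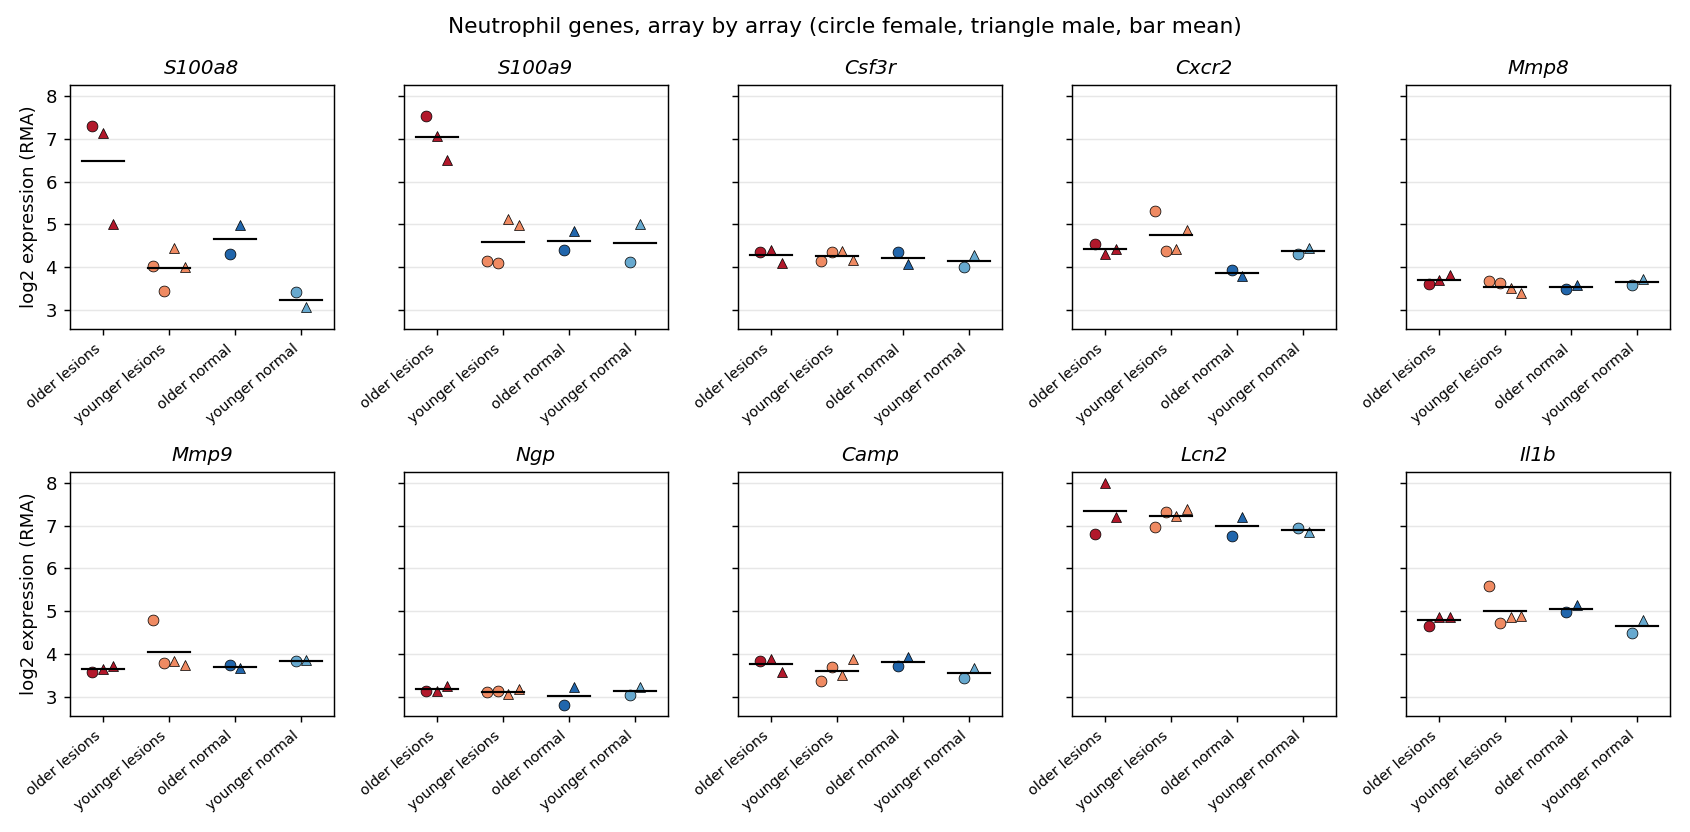
Log2 expression (vertical axis, RMA) of the 10 genes in 3 older lesions, 4 younger lesions, 2 older and 2 younger normal glands; each point is 1 array (circle female, triangle male) and each bar a group mean. S100a9 stands apart in all 3 older lesions and S100a8 in 2 of them, Mmp9 and Il1b are highest in younger lesion 4 as is Cxcr2, and Lcn2 is highest in older lesion 2.

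The receptors of the lineage did not show this pattern. Csf3r, the receptor for granulocyte colony-stimulating factor, which drives neutrophil production, read 4.35, 4.41 and 4.11 in older lesions, 4.13, 4.36, 4.39 and 4.16 in younger lesions and 4.37, 4.08, 4.00 and 4.28 in normal glands. The 3 groups overlapped throughout, and the older and younger lesions differed by 0.03 (-0.03 to 0.123 with 1 array left out). Its probe set lay below the median of all 11 arrays, at percentiles from 34.6 to 42.3.

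Cxcr2, the chemokine receptor that brings neutrophils into tissue, read 4.54, 4.30 and 4.43 in older lesions and 5.31, 4.38, 4.43 and 4.86 in younger lesions. Normal glands read 3.94 and 3.79 at 24 months and 4.31 and 4.45 at 12 months. Its highest arrays were younger lesions 4 and 7, and the 24-month normal glands were the lowest. Older minus younger lesions was -0.32, opposite in sign to S100a8 and S100a9, and -0.13 without lesion 4.

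The granule genes were dim in all groups. Ngp, neutrophilic granule protein, ranged from 2.81 to 3.24 over the 11 arrays, and Mmp8, neutrophil collagenase, from 3.39 to 3.83. Camp, the precursor of the antimicrobial peptide cathelicidin, ranged from 3.36 to 3.94, with its highest value in a normal gland. Older and younger lesions differed by 0.05 for Ngp (0.014 to 0.071 with 1 array left out), 0.16 for Mmp8 (0.104 to 0.211) and 0.15 for Camp (0.07 to 0.244). All 3 probe sets lay in the lowest 31.8% of every array.

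Lcn2, the iron-siderophore binding protein lipocalin 2, is a granule gene that epithelium and injured tissue also transcribe. It read 6.81, 8.0 and 7.21 in older lesions, 6.97, 7.32, 7.24 and 7.39 in younger lesions and 6.76, 7.21, 6.94 and 6.84 in normal glands. Older lesion 2 held the highest value and older lesion 1, the array with the most S100a8 and S100a9, one of the lowest. The older lesions differed from the younger by 0.11, and by 0.38 without lesion 1 or -0.22 without lesion 2.

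Mmp9, a gelatinase stored in neutrophil granules and also made by macrophages, read 3.58, 3.65 and 3.73 in older lesions and 4.80, 3.78, 3.83 and 3.74 in younger lesions. Normal glands read 3.75, 3.66, 3.83 and 3.85. Younger lesion 4 lay above every other array, and the other 10 arrays spanned 3.58 to 3.85. All older lesions lay below all younger lesions, as for 4.55% of all probe sets, with a difference of -0.39, or -0.13 without lesion 4.

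Il1b, the cytokine interleukin 1 beta, read 4.66, 4.87 and 4.87 in older lesions, 5.59, 4.71, 4.87 and 4.89 in younger lesions and 4.97, 5.15, 4.50 and 4.79 in normal glands. Lesion 4 again held the highest value, and older minus younger lesions was -0.22, or -0.025 without it. The same array thus had the maximum of 3 of the 10 members, Cxcr2, Mmp9 and Il1b, while its S100a8 and S100a9 lay within the range of the normal glands. Lesion 4 also held the maximum of 14.5% of all probe sets, more than any other array. Without it, lesions minus normal glands was -0.055 for Mmp9 and -0.041 for Il1b, against 0.10 and 0.07 with it.

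**Figure D2:**
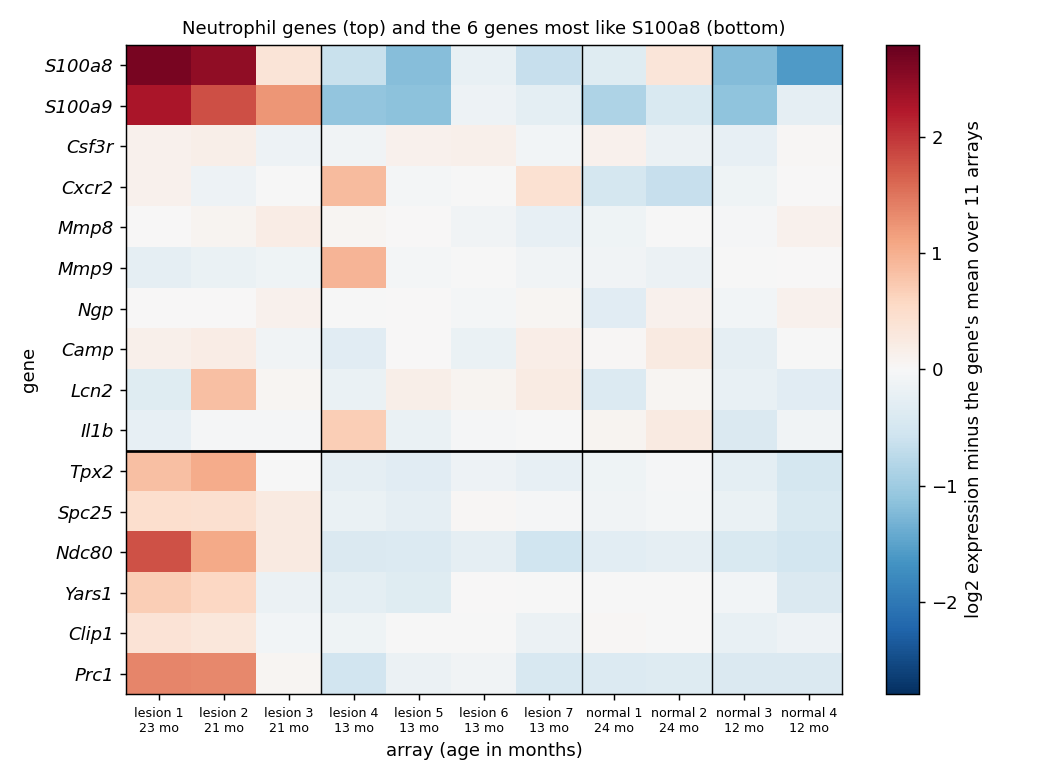
Deviation of log2 expression from each gene's mean over 11 arrays (colour), with arrays in columns by group and age in months and genes in rows, the 10 neutrophil genes above the line and the 6 genes most like S100a8 below it. The strongest red of S100a8 and S100a9 lies in lesions 1 and 2, with lesion 3 paler, and that of Cxcr2, Mmp9 and Il1b in lesion 4.

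The members' values therefore did not vary as 1 unit. Probe sets of Csf3r, Mmp8, Mmp9, Ngp and Camp lay below the median of every array, where signal over background could not be read. A low correlation with them therefore does not show that the genes vary apart. Over the 11 arrays S100a8 and S100a9 had Pearson r = 0.883, Mmp9 and Il1b 0.740, and Cxcr2 and Mmp9 0.711, the 3 pairs above 0.7 of 45. Without lesion 4, over 10 arrays, r was -0.261 for Mmp9 and Il1b and 0.113 for Cxcr2 and Mmp9, so both rested on that array. For S100a8 and S100a9 it was then 0.889. The median over the 45 pairs was 0.07, and the lowest, Mmp9 with Camp, was -0.688. Without the 3 older lesions r between S100a8 and S100a9 was 0.286 over 8 arrays. These correlations describe 11 arrays normalized together and carry no test. The standard deviation of S100a8 and S100a9 over the arrays exceeded that of 99.9% and 99.8% of probe sets, against 15.5% for Ngp, 15.2% for Mmp8 and 25.2% for Csf3r. The mean of the 8 members other than the calprotectin pair spanned 4.32 to 4.49 in older lesions, 4.35 to 4.62 in younger lesions and 4.21 to 4.35 in normal glands.

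**Figure D3:**
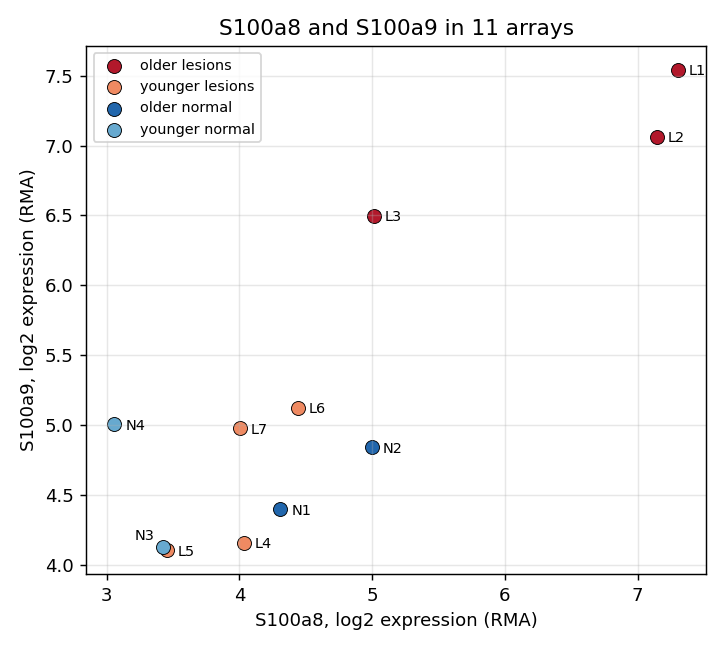
S100a9 against S100a8 (both axes log2 expression, RMA), 1 point per array, labelled L for lesion and N for normal gland with the replicate number. The 3 older lesions lie at the upper right, with lesion 3 at a lower S100a8 value than lesions 1 and 2, and the other 8 arrays lie together at 3.06 to 5.00 for S100a8 and 4.10 to 5.12 for S100a9.

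The study's own question, lesion against normal gland, put all 7 lesions beside the 4 normal glands. None of the 10 members was called at an adjusted p under 0.05 over all probe sets (limma), where 0.065% of probe sets were called. At an unadjusted p under 0.05 there was 1, Cxcr2, as for 7.71% of all probe sets. S100a8 differed by 1.11 (SE 0.75, 95% CI -0.52 to 2.74, limma adjusted p = 0.799) and S100a9 by 1.05 (SE 0.64, 95% CI -0.34 to 2.43, limma adjusted p = 0.768). These wide intervals hold the older and younger lesions together, and without lesion 1 the differences were 0.73 for both. For these genes the lesion group includes the older-lesion values that brought them into view. Their estimates, intervals and p-values are therefore not independent of that choice. The Cxcr2 mean was 4.61 ± 0.36 (SD, n = 7) over the lesions and 4.12 ± 0.31 (SD, n = 4) over the normal glands. The fitted difference was 0.49 (SE 0.20, 95% CI 0.06 to 0.91, limma adjusted p = 0.577).

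For Lcn2 the means were 7.27 ± 0.38 (SD, n = 7) over the lesions and 6.94 ± 0.20 (SD, n = 4) over the normal glands. The fitted difference was 0.34 (95% CI -0.07 to 0.75, limma adjusted p = 0.724). The other 6 members differed by -0.01 for Camp to 0.10 for Mmp9. For the receptor Csf3r the 95% interval was -0.12 to 0.31, for Ngp -0.13 to 0.26 and for Mmp8 -0.17 to 0.22. For no member did the lesions and the normal glands separate fully, which 0.479% of probe sets did with lesions above and 0.695% with lesions below. The younger lesions alone also separated from the normal glands for 0 of 10 members, against 3.5% of probe sets above and 2.43% below.

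**Figure D4:**
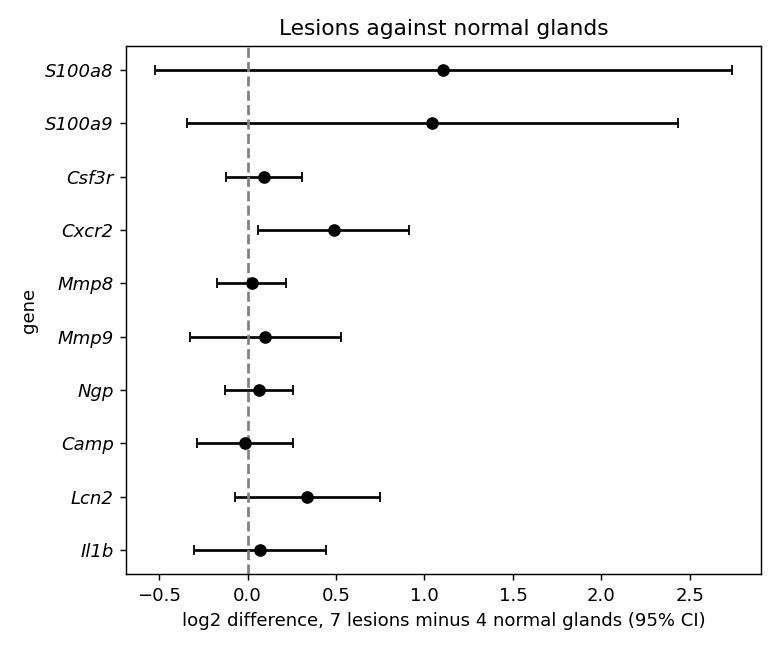
Difference in log2 expression between 7 lesions and 4 normal glands (horizontal axis) for each of the 10 genes (vertical axis), with 95% confidence intervals from limma. The intervals of S100a8 and S100a9 are the widest and include 0, and that of Cxcr2 lies between 0.06 and 0.91.

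Normal glands of 24 and 12 months were compared to see whether age goes with these genes without a lesion. The choice of genes had not used the age contrast of these arrays, though earlier results of the same data were known. The fit also shared its spread with the lesion arrays. By limma none of the 10 members was called between 24 and 12 months, and 0.0% of all probe sets were. None of the 10 had an unadjusted p under 0.05, as 2.87% of probe sets did. S100a8 was higher at 24 months by 1.41 (SE 0.64, 95% CI -0.03 to 2.84, limma adjusted p = 1.0), with both older glands above both younger ones. The 95% interval for S100a9 was -0.94 to 1.05 around a difference of 0.06. Cxcr2 differed by -0.51 (95% CI -1.11 to 0.08) and Il1b by 0.41 (95% CI -0.15 to 0.98). A limma fit to the 4 normal glands alone, chosen after seeing the data, called 0 of 10 members and 0.0% of probe sets. In that fit 2 of 10 members, S100a8 and Cxcr2, had an unadjusted p under 0.05, as did 3.66% of probe sets. Its 95% interval was 0.63 to 2.19 for S100a8 and -0.87 to -0.16 for Cxcr2, each with a limma adjusted p = 1.0 and both older glands on 1 side of both younger ones. With 2 glands per age, 3 members had both older glands above both younger ones (S100a8, Camp and Il1b), against 15.6% of all probe sets, and 2 had both below (Cxcr2 and Mmp9), against 13.1%.

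Sex, fitted beside group and age class, called none of the 10 members and 0.0% of all probe sets (limma). None of the 10 had an unadjusted p under 0.05, as 4.51% of probe sets did. The largest differences were 0.40 for S100a9, higher in males (95% CI -0.17 to 0.97), and 0.33 for Lcn2 (95% CI -0.07 to 0.73), both with a limma adjusted p = 0.999. Outside the older lesions, the 4 females read 4.10 to 4.40 for S100a9 and the 4 males 4.84 to 5.12. This split was chosen for mention after its values were seen, and the share of all probe sets that split so was not counted. Among older lesions the female read the highest. Without lesion 1 the difference for S100a9 was 0.79, still not called.

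Other genes of neutrophil biology were read from lists and named by the size of their difference between older and younger lesions. Over all probe sets the median of that difference was -0.02, and 45.8% lay above 0. For list genes, a range after a difference gives its lowest and highest value with 1 array left out, printed where that moved it by over 1.5 times. Among other granule and enzyme genes, 7 of 16 measured genes lay above 0 (median -0.05). Mpo, the myeloperoxidase of primary granules, read 4.22 to 4.73 in older lesions and 4.45 to 5.31 in younger lesions, a difference of -0.39 (-0.553 to -0.219). Hp, the haemoglobin-binding haptoglobin, differed by -0.41, with all older lesions below all younger ones, as for 4.55% of all probe sets. The protease inhibitor Slpi differed by 0.24 (-0.138 to 0.496, the lowest without lesion 1).

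Among other neutrophil receptors and surface genes, 10 of 15 lay above 0 (median 0.11). Itgam, the alpha chain of the integrin Mac-1 of neutrophils and macrophages, read 4.49, 4.06 and 6.01 in older lesions and 3.48 to 4.20 in younger lesions. Its peak was in lesion 3, the older lesion with the least S100a8, and the difference of 0.98 (0.397 to 1.371) was lowest without that array. Its partner chain Itgb2 read 6.10 to 6.73 in older lesions and 5.70 to 6.04 in younger lesions, and 5.33 to 6.84 in normal glands. Itgb2 differed by 0.60, with all older lesions above all younger ones, as for 3.04% of all probe sets. The antibody receptor Fcgr3a differed by -0.40 (-0.777 to -0.081, nearest 0 without lesion 2).

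Among phagocyte oxidase genes and myeloid transcription factors, 5 of 11 lay above 0 (median -0.02). The small GTPase gene Rac2 read 7.73, 6.14 and 7.65 in older lesions and 6.11 to 6.69 in younger lesions, a difference of 0.77 (0.485 to 1.282), and lesion 2, high in S100a8 and S100a9, was low in it. The oxidase subunit Ncf4 differed by 0.45 (0.226 to 0.622, lowest without lesion 1) and Spi1, the gene of PU.1, by -0.28 (-0.363 to -0.152, nearest 0 without lesion 3). Of the signals that attract or expand neutrophils, 5 of 13 lay above 0 (median -0.03). None of these 13 differed by more than 0.21 either way, with Cxcl3 at 0.21 (0.068 to 0.323), Il1a at 0.19 (0.093 to 0.319) and Cxcl6 at -0.18 (-0.252 to -0.101), and 0 of the 13 had a mean above the median of all values.

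Of the receptors for calprotectin and the interleukin 1 pathway, 5 of 16 lay above 0 (median -0.11). Pycard, the inflammasome adaptor, differed by 0.78 (0.521 to 1.068), and Ly96, the co-receptor of Toll-like receptor 4, by -0.62. Cd36 differed by -0.48 (-0.964 to 0.035), and its sign turned without lesion 1. Among other S100 genes, 10 of 12 lay above 0 (median 0.28). S100b, a marker of glial and sustentacular cells, read 5.45, 6.58 and 7.13 in older lesions and 7.49 to 8.12 in younger lesions, a difference of -1.41 and opposite to S100a8. S100a3 differed by 1.23, or 0.40 without lesion 1, and S100a13 by 0.95, or 0.62 without it. Acute phase genes gave 4 of 12 above 0 (median -0.06), led by Hp, the cytokine-signalling inhibitor Socs3 (-0.38, or -0.214 without lesion 1) and Timp1 (-0.27, or 0.231 without lesion 1).

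**Figure D5:**
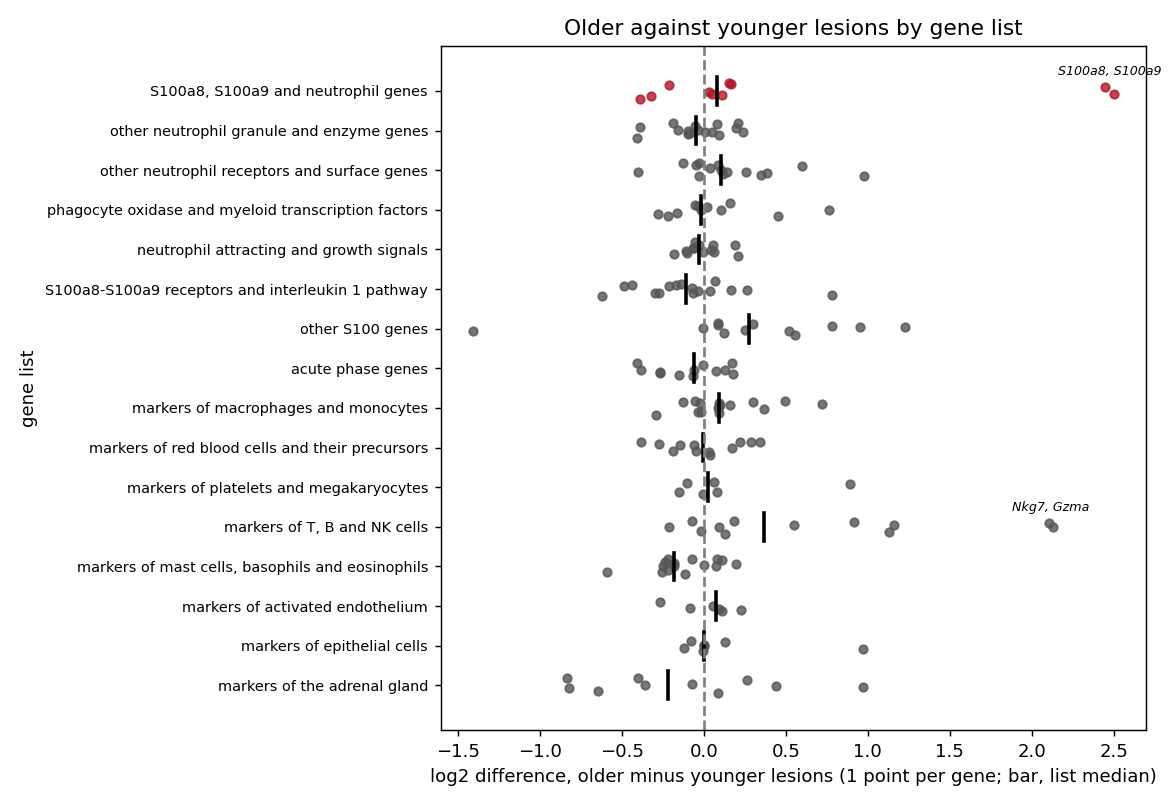
Difference in log2 expression between older and younger lesions (horizontal axis) for every measured gene of each list (vertical axis), 1 point per gene, with a bar at the list median and points spread vertically for sight only. S100a8 and S100a9 lie near 2.5 at the right, with Nkg7 and Gzma near 2.1, and the granule, receptor, oxidase and attracting-signal lists between -0.41 and 0.98.

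In the lesion and normal comparison, 0 of the 175 other listed genes were called in either direction by limma, against 0.065% of all probe sets, and 10 had an unadjusted p under 0.05, against 7.71%. The same test in normal glands by age called 0 of the 175, against 0.0%, with 4 at an unadjusted p under 0.05, against 2.87%.

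Markers of other cells that the tissue could hold were read beside the pair. Macrophage and monocyte markers had list means of 6.64 to 6.97 in older lesions, 6.41 to 6.87 in younger lesions and 6.47 to 6.84 in normal glands, with 10 of 16 above 0 (median 0.09). The largest differences among them were 0.72 for Ms4a7 (0.17 without lesion 1), 0.49 for the scavenger receptor gene Cd163 (0.258 to 0.719) and 0.37 for the complement gene C1qa (0.045 without lesion 1). Markers of T, B and NK cells had means of 4.61 to 6.18 in older lesions, 4.83 to 5.04 in younger lesions and 4.94 to 5.53 in normal glands, with 9 of 12 above 0 (median 0.37). The cytotoxic granule genes Nkg7 and Gzma were high in lesion 1 (8.74 and 7.60) and lesion 3 (9.51 and 9.05) and low in lesion 2 (4.84 and 3.84), while S100a8 was high in lesions 1 and 2. Cd8a followed Nkg7, at 6.58, 4.78 and 6.90 in lesions 1 to 3, as did Gzmb at 8.10, 6.25 and 9.56. The T cell genes Cd3e, Cd3d and Cd3g of the same list did not follow in lesion 3. They read 3.87, 3.74 and 3.68 there, against 4.67, 5.64 and 5.78 in lesion 1. The differences were 2.13 for Nkg7 (1.222 to 3.555), 2.11 for Gzma (0.997 to 3.599) and 1.16 for Cd8a (0.753 to 1.81), each lowest without lesion 3 and highest without lesion 2.

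Red blood cell markers gave 6 of 12 above 0 (median -0.01), with means of 4.98 to 5.56 in older lesions, 5.12 to 5.44 in younger lesions and 5.13 to 5.21 in normal glands. Their largest differences were -0.39 for Tfrc (-0.567 to -0.207), 0.34 for Hbb-b1 (-0.013 to 0.873) and 0.29 for Alas2 (-0.084 to 0.519). The signs of Hbb-b1 and Alas2 turned without lesion 3. Platelet markers gave 3 of 6 (median 0.03), with means of 4.61 to 4.96, 4.59 to 4.68 and 4.64 to 4.87 in the same order. Pf4, which platelets and some macrophages carry, differed by 0.89 with all older lesions above all younger ones, as for 3.04% of all probe sets. Normal glands, however, reached 8.11 for Pf4 against 8.09 in older lesions. Gp1ba differed by -0.15 (-0.299 to -0.052) and Ppbp by -0.10 (-0.252 to 0.00925, its sign turning without lesion 1).

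Mast cell, basophil and eosinophil markers gave 4 of 15 above 0 (median -0.18), with means of 3.47 to 3.58, 3.59 to 3.76 and 3.54 to 3.62, led by Kit at -0.59, Mcpt4 at -0.25 (-0.318 to -0.143) and Tpsb2 at -0.25. Endothelial markers gave 4 of 6 (median 0.08), with means of 5.63 to 5.79, 5.56 to 5.84 and 5.44 to 5.83. Of these, Vcam1 differed by -0.27 (-0.395 to -0.139), Icam1 by 0.23 and Selp, which tethers neutrophils to the vessel wall, by 0.11. Epithelial markers gave 3 of 7 (median -0.001), with means of 4.03 to 4.37, 3.98 to 4.10 and 4.02 to 4.20. Epcam differed by 0.97 through lesion 1 alone (0.125 without it), Krt14 by 0.13 (0.078 to 0.163) and Krt18 by -0.12 (-0.22 to -0.017). Adrenal markers gave 4 of 10 (median -0.22), with Ddc at 0.97, Cyp11b2 at -0.83 and Cyp21a1 at -0.82. Without lesion 1 these were 0.56, -0.235 and -0.32. The part of these cell types in the S100a8 and S100a9 values was not tested.

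The genes whose pattern was most like S100a8 over the 11 arrays were sought among all 14506 genes. The 6 nearest outside the members were Tpx2 (Pearson r = 0.975), Spc25 (0.945), Ndc80 (0.935), Yars1 (0.927), Clip1 (0.919) and Prc1 (0.917). S100a9 itself ranked 14. Tpx2, Spc25, Ndc80 and Prc1 are genes of the mitotic spindle and kinetochore, Clip1 encodes a microtubule plus-end protein and Yars1 a tyrosine-tRNA ligase. Tpx2 read 5.23, 5.43 and 4.38 in older lesions, 4.07 to 4.24 in younger lesions and 3.88 to 4.36 in normal glands, with lesion 3 again closest to the rest. Ndc80 read 5.61, 4.90 and 4.09 in older lesions and 3.28 to 3.59 in younger lesions.

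Without lesions 1 and 2, the 2 arrays farthest from the median of S100a8, r was 0.962 for Tpx2, 0.858 for Spc25, 0.718 for Ndc80, 0.599 for Yars1, 0.529 for Clip1 and 0.415 for Prc1 over 9 arrays. Over the 8 arrays that were not older lesions r ran from 0.950 for Tpx2 to 0.097 for Prc1. These likenesses were picked as the highest of 14506 and describe arrays normalized together, so no test is given.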

How the data were processed

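Gene expression was measured in 7 adrenal lesions and 4 normal adrenal glands on one-colour Affymetrix arrays. Per the submitters' processing notes, RMA and Affymetrix Expression Console 1.3.0.187 were used, and the values the authors deposited are on a log2 scale, 1 per probe set and array. RMA options and the genome build behind them are unstated in these notes. These values were tested without further normalization. Precision is limited by the number of arrays, and no pair of arrays held identical values. The labels call the arrays biological replicates, so p-values measure the spread between these samples.

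Genes were named from the supplied platform annotation, in which 15310 of 29214 probe sets had 1 symbol, 323 several and 13581 were unlisted. All 10 members matched RefSeq gene IDs with the same symbol. Tests were two-sided with limma 3.58.1 (lmFit, eBayes, R 4.3.3), with Benjamini-Hochberg adjustment over 29214 probe sets and calls under 0.05. Lesion against normal fitted group alone; age used 4 cells of group by age class; sex was added to those cells. Older against younger lesions was described without a test. The members, lists and promoter motifs were chosen with earlier results of these data known. Text names all members, up to 3 genes per list by the size of the difference between older and younger lesions, the 6 genes most like S100a8, and Cdkn1b. Gzmb, Cd3e, Cd3d and Cd3g were named beside these after their values were seen. Lists are described by counts and medians.

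On simulated data with 200 changed probe sets among 29214, the lesion and normal comparison recovered 86 of 100 changed 2-fold and 96 of 100 changed 4-fold, with 9 unchanged ones called. Recovery for normal glands by age was 48 and 86 (8 unchanged ones called) and for sex 87 and 97 (8 unchanged ones called). The simulation drew genes independently with spreads within group and age class. It gave the lesion and normal comparison no age differences, which the fit by group alone carries as spread. Its recovery for that comparison therefore does not hold for genes that differ by age, such as S100a8 and S100a9. Alternatives were renewed quantile normalization, median centring, a filter on dim probe sets, trend and robust eBayes, array weights, 1 value per gene, the mean of a gene's probe sets, covariates, the replicate number as a block, leaving out each array and, chosen after seeing the data, a fit to the normal glands alone. Figures used matplotlib 3.10.9 in Python 3.11.15.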

Additional observations from a re-analysis of the deposited data

Results flagged for a closer look

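Of 30 groups of 4 or 7 arrays examined over the 10 members, 3 had a single array far from the rest. Chance alone gives about 1 in 20 for separate groups. These groups overlap, as the younger lesions are also among the lesions and all genes share the arrays, so that rate is no measure here. All 3 were lesion replicate 4, a female of 13 months. Its Mmp9 level was 4.80, against 3.58 to 3.83 in the other 6 lesions, and the same value stood apart among the 4 younger lesions, where the others read 3.74 to 3.83. Its Il1b level was 5.59, against 4.66 to 4.89 in the other lesions. Cxcr2 was highest in the same array at 5.31, which did not stand apart by the same measure. Whether these values share a source was not tested.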

How the results depend on the processing

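None of the 10 members was called in the lesion and normal, normal age or sex comparison under any of the 20, 20 and 19 alternatives run, and the lowest adjusted p of a member was 0.311. The filter on dim probe sets, which asked for a level of 4.958 in at least 2 arrays, left 4 members (S100a8, S100a9, Lcn2 and Il1b). S100a8 passed only through the older lesions that brought it into view. Outside them, normal replicate 2 (4.997) alone lay above that level. For older minus younger lesions, S100a8 ranged from 2.09 to 3.24 and S100a9 from 2.19 to 2.71 over 19 alternatives. Several of these cannot move the difference: leaving out a normal gland, the dim filter and other eBayes settings. Nor can 1 value per gene or the mean of probe sets, as each member had 1 probe set. No member's difference moved by more than 1 SD, which includes the spread among the older lesions. As this contrast chose the genes, the ranges are a description only. Of the 572 tested member values under alternatives, 45 changed sign, each between values that were not called.

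The count of probe sets called between lesions and normal glands, 19, was 30 without dim probe sets, 31 with array weights, 29 with age class and sex as covariates, and 5 to 28 with 1 array left out (5 without normal replicate 3, 11 without lesion replicate 7). With the replicate number as a block over the 8 arrays numbered 1 to 4 it was 3. In the block fit, S100a8 differed by 1.92 (SE 0.314, limma adjusted p = 0.311) and S100a9 by 1.72 (SE 0.624, limma adjusted p = 0.569), over 1.5 times the values from all 11 arrays. That fit left out lesions 5, 6 and 7, all younger, and so leaned more on the older lesions that brought these genes into view. Same-numbered lesions and glands came from rats of different genotype, so no such pair shared an animal. Those numbered 3 and 4 also differed in sex. The numbers were therefore not taken to pair the samples. Their deviations correlated at 0.18, 0.15, 0.07 and 0.21 by number. Each sample did correlate best with its own number, and whether same-numbered samples were handled together was not tested. The count between older and younger lesions, 3, ran from 1 to 39 with 1 array left out (39 without lesion replicate 2, 7 without replicate 3, 6 without replicate 6, and 1 without lesion replicate 1 or 4 or any normal replicate). In the normal age and sex comparisons the count of 0 ran from 0 to 1, being 1 without normal replicate 2 and without lesion replicate 1.

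Sign changes in the lesion and normal comparison arose with 1 array left out, over -0.098 to 0.069 for Camp, -0.015 to 0.063 for Mmp8, -0.055 to 0.149 for Mmp9, -0.048 to 0.169 for Il1b and -0.024 to 0.115 for Ngp, and for Camp with array weights (0.000443). In normal glands by age the ranges were -0.063 to 0.226 for Csf3r, -0.325 to 0.094 for Ngp, -0.385 to 0.495 for S100a9 and -0.132 to 0.318 for Lcn2. By sex they were -0.242 to 0.319 for S100a8, -0.083 to 0.048 for Csf3r, -0.045 to 0.049 for Mmp8, -0.044 to 0.206 for Il1b, -0.243 to 0.022 for Cxcr2 and -0.273 to 0.017 for Mmp9. By sex Mmp8 was also -0.011 with renewed quantile normalization, -0.017 with median centring and -0.020 with array weights. Il1b was -0.00158 with renewed quantile normalization. S100a8 was 0.215 with array weights and 0.197 with group alone as covariate. The cause was not tested.

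Probe sets of Csf3r, Mmp8, Mmp9, Ngp and Camp were below the median on all 11 arrays, and signal over background could not be read from these values. S100a8 was above the median on 4 of the 11 arrays and S100a9 on 5, so the same limit holds for their lower readings.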

Other observations

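In the comparison of males and females, 25 of the 175 other listed genes had an unadjusted p under 0.05, against 4.51% of all probe sets, and none was called by limma (lowest adjusted p = 0.194). Of 16 measured markers of macrophages and monocytes, 8 were among the 25 (Cd68, Cd163, Adgre1, C1qa, C1qb, C1qc, Aif1 and Clec10a), with a list median of -0.32, lower in males. Markers of T, B and NK cells had a median of -0.38 with 2 of 12 genes at an unadjusted p under 0.05, and endothelial markers -0.17 with 2 of 6. The 10 neutrophil genes had a median of 0.02 and none at an unadjusted p under 0.05. No test compared the lists with each other, and they were picked for mention after their values were seen.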
